A study of Bos taurus with 18 samples.

Results

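The comparison set bovine blastocysts against 16-cell embryos, the interval in which the embryo forms its first epithelium and its fluid-filled cavity. Members were the 3 blastocyst libraries and the 3 16-cell libraries, 6 of the 18 libraries of a series that also holds GV oocytes, MII oocytes, 4-cell embryos and 8-cell embryos. Both groups were in vitro produced embryos of a German Simmental x Brahman cross, from abattoir oocytes matured and fertilised in the laboratory and grown in oviduct fluid medium with cow serum under reduced oxygen. The labels give them no other allele or treatment and no difference but stage; the sire was a single commercially available Zebu bull. Each library was 1 pool of 10 whole embryos picked by eye, so a blastocyst library mixes its outer and inner cells, and fewer cells of a type cannot be told apart from less RNA per cell. RNA was amplified as cDNA with a NuGEN kit that does not mark strand, so genes overlapping on opposite strands cannot be separated, and sequenced on an Illumina GAIIx. The labels name 3 replicates per stage but not separate collections of ovaries. The p-values measure the spread between pools, estimated over all 6 stages and not from the 16-cell and blastocyst pools alone.

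During this interval the embryo compacts and its outer cells polarise. They become the trophectoderm, which seals its borders with tight junctions and pumps sodium inward so that water follows and the blastocoel fills, while the enclosed cells form the inner cell mass. In cattle the trophectoderm later signals to the mother with interferon tau and builds most of the placenta. The bovine genome is activated mainly at the 8-cell stage, and the maternal RNA stored in the oocyte is cleared around that time.

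Values are given as scaled counts, the reads of a gene divided by the size factor of the library. A scaled count is relative to the other genes of its library and is no amount per embryo. Differences (blastocyst minus 16-cell, ± SE) are those of the deposited variance-stabilised values, which act like log2 values for well covered genes and shrink toward 0 for genes with few reads. The test was limma over all 18 libraries, and a gene rose or fell where its adjusted p (Benjamini-Hochberg over 17138 genes) was under 0.05. Unless stated otherwise, the 3 values of a stage follow the order of pools 1, 2 and 3.

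The 16-cell libraries held 2438473 to 7456788 reads and the blastocyst libraries 6166692 to 11203818, and 1 read was worth 0.667 to 2.82 scaled counts. Rank correlations across genes were 0.854 to 0.881 between 16-cell pools and 0.931 to 0.949 between blastocyst pools. Of the genes that rose, 55.9% had reads in 16-cell pool 1, against 63.9% and 73.2% in 16-cell pools 2 and 3. Over all genes tested these shares were 69.4%, 74.9% and 81.4%. Markers of other cells were followed in both stages. Among 23 cumulus and granulosa genes tested, 3 rose and 7 fell, and without 16-cell pool 3 or blastocyst pool 3 the falls numbered 4. Their summed scaled count was 1618 to 5716 in 16-cell and 1807 to 2647 in blastocyst pools. The rises were CYP19A1 (mean of 6.02 to 338.8), HSD3B1 (21.7 to 414.0) and FSHR (1.86 to 40.9). The falls were HAS2 (274.8 to 3.30), VCAN (398.8 to 9.73), KITLG (357.1 to 57.9), DCN, AMH, TNFAIP6 and STAR. LUM, from a mean of 1279.3 to 114.7, was not called. Blood and immune genes (12 tested of 18 listed) had sums of 640.4 to 2016 and 189 to 267, and 11 of the 18 were at 0 in every 16-cell pool and 6 in every blastocyst pool. CD14 rose, to a mean of 2.87, and CSF1R and CD8A fell, CSF1R from a mean of 1180.5 to 52.4. Of the defining markers HBA was at 0 in every pool and PTPRC in blastocysts, while HBB, CD3D and ALAS2, which were not called, stood at blastocyst means of 10.99, 4.75 and 60.2, against 0, 0 and 22.7 before. Without any single pool other than 16-cell pool 2 only 1 of them fell, and without 16-cell pool 3 2 rose. Sperm genes (9 tested of 20 listed) had sums of 152 to 375 and 447 to 1626, with 11 of the 20 at 0 in every 16-cell pool and 8 in every blastocyst pool. TNP1, a sperm nuclear protein, rose from a mean of 0.941 to 400.5 and SPATA18 from 1.86 to 58.6, and 1 gene fell without 16-cell pool 3. Among the sperm nuclear proteins that were not called, PRM1 and TNP2 went from 0 to means of 22.7 and 6.49, and PRM2 was at 0 in every pool. Of 9 oviduct and endometrium genes tested 5 rose (MUC16, MUC1, WFDC2, TPPP3 and CAPS), and their sums were 117 to 384 and 259 to 485. MUC16 went from a mean of 3.00 to 172.5, TPPP3 from 18.4 to 93.1 and MUC1 from 0 to 27.1, and PAEP and FOXJ1 were at 0 in every pool. Of the members not called, OVGP1 and PAX8 had higher means after, and SERPINA14 (21.7 to 0) and MSX1 (135.9 to 33.6) lower ones. The rises numbered 2 without 16-cell pool 2 or blastocyst pool 2 and 3 without any of 16-cell pools 1 and 3 or blastocyst pool 1. No gene fell, but 1 fell without any single 16-cell pool, by voom or after quantile normalization, and 2 with library medians set equal. The part of such cells in the results below was not tested.

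Of the 17138 genes tested, 3117 rose from the 16-cell stage to the blastocyst (18.2%) and 2250 fell (13.1%). With the library medians set equal, which moved the median difference of all genes by -0.36, 2408 genes rose and 2874 fell, so the share of rises among the calls went from 58.1% to 45.6%. The median difference over all genes was 0.18. With array weights 2269 genes rose and 1770 fell. With only the 6 libraries fitted, 1689 genes rose and 1226 fell, and the number of rises dropped by over 1.5 times in 19 of 35 gene lists. Setting the medians equal lowered each list median by the same amount as that of all genes. Every blastocyst pool lay above every 16-cell pool in 21.6% of all genes and below in 15.5%, and stages did not overlap in 91.6% of the genes that rose and 89.4% of those that fell. The genes named were mostly picked by size or smallest p, so a statement that their stages did not overlap describes their values and is no further evidence. Rises of 4 or more units numbered 638 (3.72%) and falls of that size 328 (1.91%). The plot of differences against mean level shows the spread of both.

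**Figure D1:**
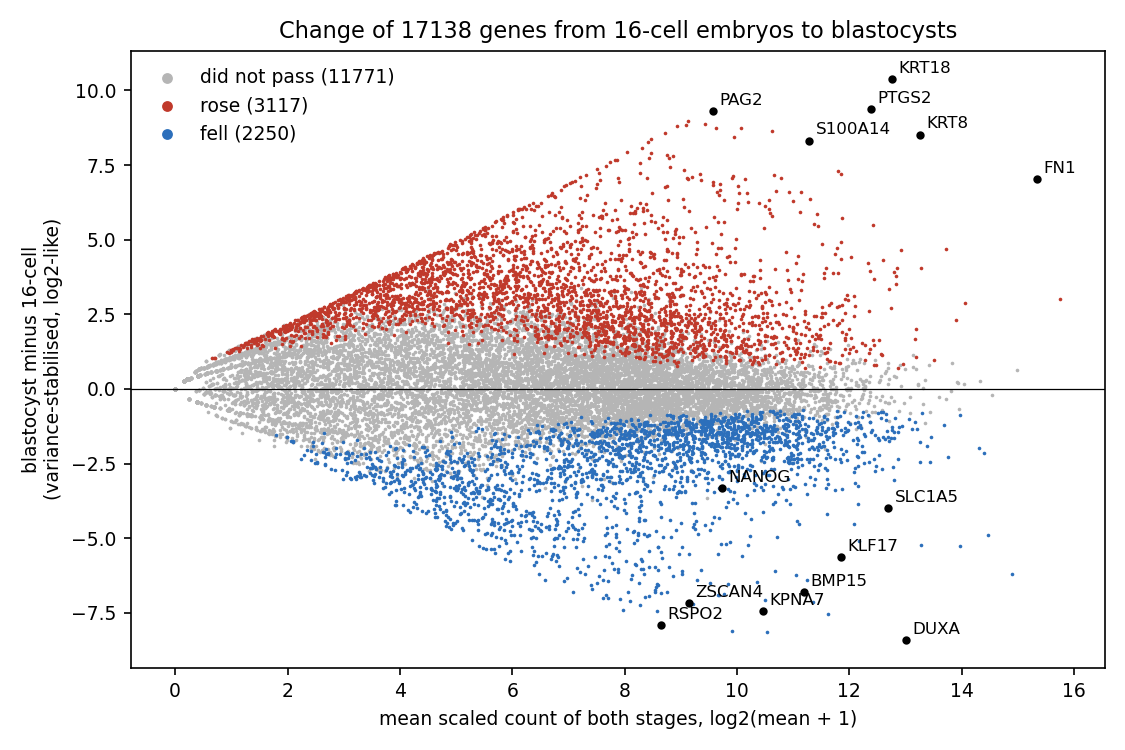
Difference between blastocyst and 16-cell embryos for 17138 genes (vertical axis, deposited variance-stabilised scale) against the log2 of the mean scaled count of both stages plus 1 (horizontal axis). Each point is a gene, red where it rose (3117), blue where it fell (2250) and grey where it did not pass (11771). The largest named rise is KRT18 at 10.39 and the largest named fall DUXA at -8.40.

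The largest rise was that of KRT18, which encodes keratin 18 of simple epithelia. Its scaled counts were 0, 31.1 and 7.42 in 16-cell pools and 14435, 19852 and 7166 in blastocyst pools, a rise of 10.39 ± 0.99 (adjusted p = 1.2e-07). Next came PTGS2, the inducible cyclooxygenase of prostaglandin synthesis, with 5.62, 19.8 and 11.1 before and 16265, 9339 and 6412 after. It rose by 9.37 ± 0.41 (adjusted p = 4.1e-12). PAG2, a pregnancy-associated glycoprotein of the trophoblast, had no read in any 16-cell pool and 1777, 2144 and 657 scaled counts in blastocyst pools. That is at least 789-fold higher than the limit set by 3 reads over the 16-cell pools, although PAG genes have close copies that may share reads. For all 3 genes the lowest blastocyst pool lay far above the highest 16-cell pool, and blastocyst pool 3 was the lowest of its stage. Other large rises were those of PLAU, the urokinase plasminogen activator, MMP12, a matrix metalloproteinase, GRHL1, an epithelial transcription factor, and PLS1, an actin bundler of microvilli. GRHL1 had 1 read over the 16-cell pools and 1626, 1254 and 1249 scaled counts in blastocysts. PLS1 went from 0, 2.82 and 24.1 to 4969.6, 2669.6 and 1854. The remaining large rises, SLC1A3, ANXA8, SPIC, KRT8 and PDPN, spanned differences of 8.45 to 8.83. Absence of overlap was part of the rule that picked these largest rises.

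Most genes of the tight junction, the belt that closes the space between epithelial cells, rose. Of 26 tested, 18 rose and 2 fell, while 6 did not pass the test. Their median was 2.64, against 0.18 for all genes. TJP1, a cytoplasmic scaffold (ZO-1), was already read at 959.5, 1542 and 1622 in 16-cell pools and rose to 4114, 3042 and 3387 in blastocyst pools (1.38 ± 0.28, adjusted p = 0.00071). OCLN, the membrane protein occludin, went from 97.8, 522 and 254 to 1785, 1310.2 and 1638. Stages did not overlap in either. Claudins are the proteins that set which ions pass. CLDN6 rose from 304, 1124 and 509 to 8965, 16839.5 and 9339 (difference 4.32 ± 0.82, adjusted p = 0.00041). CLDN4 had reads in 16-cell pool 2 alone (0, 73.4 and 0) and 751, 1219 and 497 in blastocysts. CLDN7 and CLDN8 had no read at the 16-cell stage. In blastocyst pools CLDN7 stood at 24, 39.4 and 55.2, at least 20.4-fold higher than 3 reads over the 16-cell pools would give. AMOT, a junction scaffold that binds YAP1, rose by 2.47 ± 0.32. The 2 members that fell were adhesion molecules of the same family. JAM2 was at 672, 96 and 619.9 and then 6.67, 0 and 38.7 (adjusted p = 0.064 when only the 6 libraries were fitted), and CXADR, the coxsackievirus and adenovirus receptor, at 1986, 1635 and 2378 and then 203, 458 and 301. The call of CXADR was lost without blastocyst pool 1 (adjusted p = 0.055), which left 1 fall in the list.

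Adhesion junctions and desmosomes anchor actin and keratin filaments at the cell border. Of 29 genes tested, 17 rose and 3 fell, while 9 did not pass the test (median 1.79). CTNNA1, alpha-catenin, which ties cadherins to actin, had a narrow spread, with 339, 446 and 475 before and 6447, 4974 and 5301 after (a rise of 3.72 ± 0.29, adjusted p = 6.1e-09). CTNNB1, beta-catenin, rose by 2.26 ± 0.35. E-cadherin itself, CDH1, was well read at 16 cells (826, 779 and 2173) and reached 2623, 3096 and 7146, a rise of 1.79 ± 0.41 (adjusted p = 0.0022) with no overlap but with adjusted p = 0.099 when only the 6 libraries were fitted. The desmosome genes named differed in their 16-cell level. DSP, desmoplakin, had 2.25, 84.7 and 251 in 16-cell pools and 4422, 3519.7 and 4061 in blastocysts, with 16-cell pool 1 far below the others. PERP, a desmosomal membrane protein, had reads in 16-cell pool 3 alone and 1118, 852 and 626 scaled counts in blastocysts (7.83 ± 0.74, adjusted p = 1e-07). DSG3, desmoglein 3, had 2 reads over the 16-cell pools and stood at 664, 652 and 756 after. Blastocyst pools lay above 16-cell pools in these desmosome genes, which were picked by smallest p. The members that fell were the gap junction genes GJA1 and GJC1 and the cadherin CDH3, and none of the 3 passed with the 6 libraries alone (adjusted p of CDH3 0.12 and of GJC1 0.075). GJA1, connexin 43, went from 120.2, 149.6 and 364 to 70.7, 2.19 and 10.6 (a fall of 3.38 ± 0.66, adjusted p = 0.00053, and 0.098 with the 6 libraries alone).

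**Figure D2:**
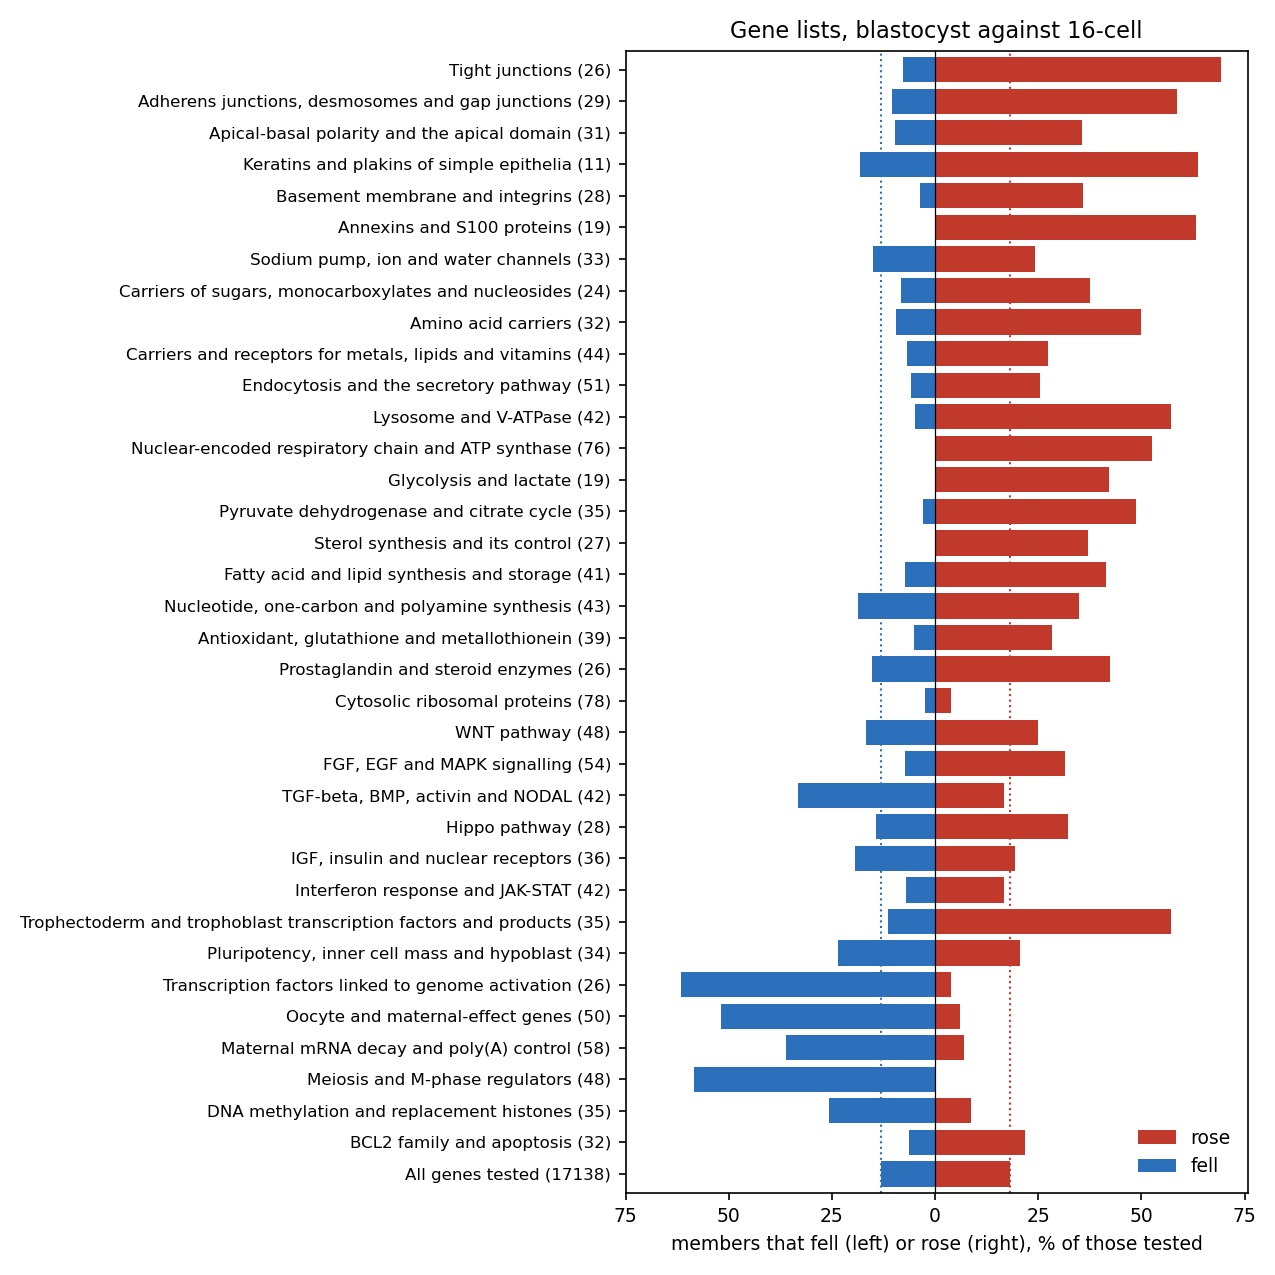
Share of each gene list that rose (red, right) or fell (blue, left), in percent of its members tested, whose number stands in brackets. Dotted lines mark the shares of all 17138 genes, 18.2% and 13.1%. Tight junction, desmosome, keratin and lysosome lists reach far past the line for rises, and lists of activation factors, oocyte genes and meiosis past the line for falls.

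Keratins, vimentin and the plakins that link such filaments formed a short list. Of 11 tested, 7 rose and 2 fell, while 2 did not pass the test (median 5.79). KRT8, the partner of keratin 18, went from 13.5, 96 and 68.7 to 18575, 28062 and 12122 (a rise of 8.52 ± 0.97, adjusted p = 1.1e-06). KRT19 had 3 reads over the 16-cell pools, all in pool 2, and 531, 1295 and 188 scaled counts in blastocysts. VIM, the filament protein vimentin of non-epithelial cells, fell, from 129, 802 and 726 to 0.667, 2.19 and 2.9, by 6.38 ± 1.21 (adjusted p = 0.00037). KRT23, with 15.7, 90.4 and 1.86 at 16 cells and no read in blastocysts, fell as well, with adjusted p = 0.097 when only the 6 libraries were fitted. Stages were separate for KRT8, KRT19 and VIM, although 16-cell pool 1 held the lowest VIM value of its stage.

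Apical-basal polarity genes, which give the outer cells a free and a contact face, did not all rise. Of 31 tested, 11 rose and 3 fell, while 17 did not pass the test (median 0.72), and without 16-cell pool 1 or blastocyst pool 3 only 1 fell. Over the alternatives the median was 0.36 to 0.97. SLC9A3R1 (NHERF1), a scaffold under the apical membrane, went from 32.6, 67.8 and 76.1 to 4867, 6356 and 3766 and rose by 6.36 ± 0.38 (adjusted p = 2.3e-10). EZR, ezrin, which links that membrane to actin in microvilli, went from 1582, 816 and 444 to 18829, 10061 and 10784, and its relative MSN, moesin, from 992, 895 and 854 to 7347, 7148 and 6972. PRKCI, the atypical protein kinase C of the PAR complex, rose by 3.40 ± 0.44 (adjusted p = 6.1e-06), from 389.9, 102 and 406 to 3308, 2471 and 2462. Stages did not overlap in these genes, picked by smallest p. Among its partners in the complex, PARD3 differed by -0.41 without passing (adjusted p = 0.5). PARD6B went from 612, 449 and 336 to 207, 225 and 193, a fall of 1.11 ± 0.37 whose adjusted p of 0.027 rose above 0.05 without 16-cell pool 1 (0.1), blastocyst pool 1 (0.052) or blastocyst pool 3 (0.064).

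Basement membrane and integrin genes rose in 10 of 28 and fell in 1 (median 1.75), the fall being LAMB3 (adjusted p = 0.077 with the 6 libraries alone), and without 16-cell pool 3 a further gene fell. FN1, fibronectin, reached 80479, 63450.3 and 103328 in blastocyst pools from 118, 1271 and 1505, a rise of 7.03 ± 0.66 (adjusted p = 9.6e-08). ITGA5, the fibronectin-binding integrin chain, rose by 6.14 ± 1.05, from 2.25, 81.9 and 115 to 2012, 3757 and 2733. For both, 16-cell pool 1 was at least 10 times below the other 16-cell pools, and every blastocyst pool lay above every 16-cell pool. Laminin chains differed in course: LAMB1 and LAMC1 rose by 2.76 (adjusted p = 0.073 with the 6 libraries alone) and 1.20, while LAMA1 did not pass (difference 2.24, adjusted p = 0.15). Annexins and S100 proteins, which bind calcium and membranes, rose in 12 of 19 with no fall (median 3.17). S100A14 went from 1.12, 39.5 and 13 to 5787, 6314 and 2888 and rose by 8.32 ± 1.00 (adjusted p = 2.3e-06). ANXA3 had reads in 16-cell pool 3 alone and 1126, 1111 and 425 in blastocyst pools.

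**Figure D3:**
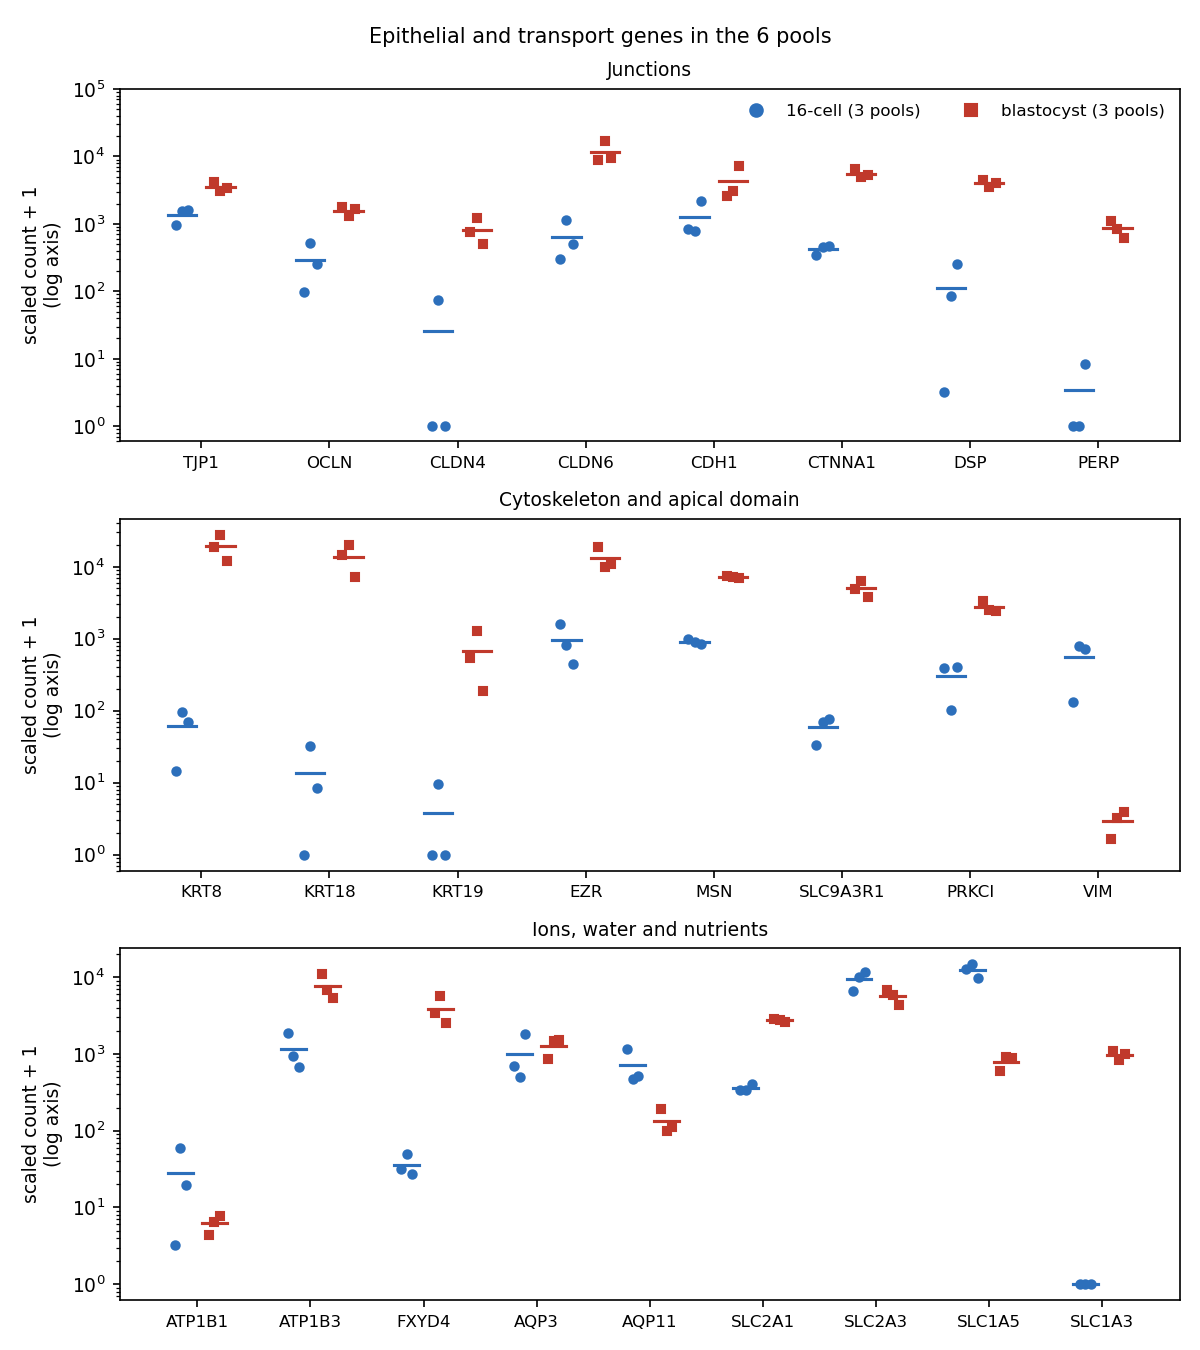
Scaled counts plus 1 on a log axis for 25 epithelial and transport genes in the 3 16-cell pools (blue circles) and 3 blastocyst pools (red squares); each horizontal bar is the mean of a stage, and points at 1 are pools with no read. KRT18 sits at 0 to 31.1 in 16-cell pools and at 7166 or above in blastocyst pools, VIM at 2.9 or below in blastocysts, and AQP3 overlaps between stages.

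Genes for moving ions and water did not shift as a group. Of 33 tested, 8 rose (24.2%) and 5 fell (15.2%), while 20 did not pass the test, against 18.2% and 13.1% of all genes. The median of -0.34 ranged from -0.70 to 0.60 over the alternatives, above 0 without any single 16-cell pool. ATP1B3, a beta chain of the sodium pump, rose by 2.79 ± 0.48 (adjusted p = 0.00016), from 1844, 940.2 and 677 to 11037, 6714 and 5325. The beta chain ATP1B1 had few reads at either stage, 2.25, 59.3 and 18.6 and 3.33, 5.48 and 6.78, and did not pass (difference -1.20 ± 0.66, adjusted p = 0.19), although it fell without 16-cell pool 1 (adjusted p = 0.007) and after quantile normalization (0.0073). FXYD4, a small regulator of the pump listed by locus number, went from 30.3, 48 and 26 to 3395, 5683 and 2500.3, a rise of 6.59 ± 0.92 (adjusted p = 1.5e-05). Every blastocyst pool exceeded every 16-cell pool for ATP1B3 and FXYD4. SLC9A3, a sodium/proton exchanger of apical membranes, had no read before and 39.3, 38.3 and 51.3 after. SLC12A2, the sodium-potassium-chloride cotransporter, fell by 3.15 ± 0.44 (adjusted p = 1.5e-05), from 1894, 1640.4 and 3205 to 347, 104 and 376. Of the water channels tested, AQP3, AQP4, AQP5, AQP7 and AQP11, none rose. AQP3 was read at 689, 497 and 1828 and 844, 1479 and 1502, with overlap (difference 0.53 ± 0.71, adjusted p = 0.63). AQP11 went from 1143, 472 and 509 to 189, 98.6 and 109, a fall of 2.32 ± 0.81 (adjusted p = 0.033) that did not pass without 16-cell pool 1 (0.12), blastocyst pool 2 (0.1) or blastocyst pool 3 (0.09).

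Sugar, monocarboxylate and nucleoside carriers rose in 9 of 24 and fell in 2 (median 0.86). SLC2A1, the glucose carrier GLUT1, had tight values of 333, 333 and 406 before and 2827, 2775 and 2632 after, a rise of 2.93 ± 0.40 (adjusted p = 1.1e-05). SLC2A3, the carrier GLUT3, went from 6688, 10181 and 11771 to 6822, 5839.9 and 4338. It did not pass (difference -0.74 ± 0.38, adjusted p = 0.16), and with library medians set equal it fell (adjusted p = 0.048). SLC5A11, a sodium-driven inositol and sugar carrier, had no read at 16 cells and 115, 83.3 and 105 in blastocysts. SLC5A6, the sodium-driven vitamin carrier for biotin and pantothenate, fell by 2.39 ± 0.45, from 2736, 3047 and 2142 to 463, 571 and 456. The other fall, of the nucleoside carrier SLC28A2, was lost without any of 16-cell pool 1 (0.081), blastocyst pool 1 (0.14) or blastocyst pool 2 (0.075).

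Amino acid carriers rose and fell within the same families. Of 32 tested, 16 rose and 3 fell, while 13 did not pass the test (median 2.21), and the falls numbered 5 without 16-cell pool 1 and 5 with the replicate number as a block. SLC1A5, the glutamine carrier ASCT2, was at 12710.0, 14820.3 and 9870.2 in 16-cell pools and 593, 902 and 870.2 in blastocysts. It fell by 3.98 ± 0.29 (adjusted p = 4.1e-09). Of its relatives, SLC1A4 (ASCT1) went from 12.4, 31.1 and 48.3 to 507, 891 and 698, a rise of 4.46 ± 0.49, and SLC1A3, a glutamate carrier, from no read to 1078, 842 and 992, at least 502-fold higher than 3 reads over the 16-cell pools would give. SLC1A1 rose by 3.97, and SLC1A2 did not pass. Among cationic amino acid carriers SLC7A2 fell by 5.67 ± 0.71, from 1469, 438 and 466 to 22, 0 and 37.8. SLC7A1, the main carrier for arginine, rose by 3.71 (adjusted p = 0.0076). SLC7A5, the large neutral amino acid carrier LAT1, went from 91, 356 and 217 to 908, 2392 and 1380.4 and rose by 2.88 ± 0.81. Stages were separate in SLC1A3, SLC1A4, SLC1A5, SLC7A2 and SLC7A5.

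Carriers and receptors for metals, lipids and vitamins rose in 12 of 44 and fell in 3 (median 0.77). Without 16-cell pool 1 the median was 0.12 and 5 genes fell, without 16-cell pool 2 the median was 0.51, and with library medians set equal 6 fell. LRP2, the endocytic receptor megalin, went from 3189.8, 2541 and 7839.7 to 29794, 24126 and 34536 and rose by 2.87 ± 0.34 (adjusted p = 1.9e-06). Its adaptor DAB2 rose by 3.15 ± 0.53, from 856, 1313 and 438 to 8560.2, 6941 and 5886. FTH1, the ferritin heavy chain that stores iron, rose by 3.16 ± 0.38, and SLC11A2, an iron importer, by 3.33 ± 0.53. STRA6, the receptor for retinol-binding protein, fell, with 32.6, 56.5 and 238 before and 1 read over the blastocyst pools. Coat and secretory pathway genes rose in 13 of 51 and fell in 3 (median 0.64), and without blastocyst pool 3 only 1 fell, while 5 fell with library medians set equal (median 0.28). Clathrin heavy chain, CLTC, went from 3992, 3515 and 5637 to 15565, 10030.1 and 16285 (a rise of 1.67 ± 0.32), and RPN2, of the enzyme that attaches sugar chains in the endoplasmic reticulum, rose by 2.43 ± 0.36.

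Lysosome and vacuolar proton pump genes mostly rose. Of 42 tested, 24 rose and 2 fell, while 16 did not pass the test (median 2.30). LAMP2, a lysosomal membrane protein, went from 657, 895 and 1262 to 8759, 4992 and 5830.2 and rose by 2.80 ± 0.28 (adjusted p = 2.6e-07). NPC1, which exports cholesterol from the lysosome, rose by 3.18 ± 0.45, from 74.2, 50.8 and 147 to 649.9, 817 and 899. CTSA, cathepsin A, went from 3.37, 0 and 63.1 to 1172, 1489.8 and 1233. All 3 rose without overlap. The a chains of the proton pump went in opposite directions. ATP6V0A4, the form known from acid-secreting kidney cells, rose by 7.07 ± 0.94 (adjusted p = 8.3e-06), from 0, 127 and 55.7 to 3325, 3890.0 and 3126. ATP6V0A1 fell by 1.53 ± 0.42, from 198, 584 and 462 to 82.6, 148 and 170.4. That call was not made by voom (adjusted p = 0.12) or with the 6 libraries alone (0.11).

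Genes of oxidative metabolism rose in each of the respiratory complexes and ATP synthase. Of 76 nuclear-encoded respiratory chain and ATP synthase genes tested, 40 rose and none fell, while 36 did not pass the test (median 1.70). By complex, 18 of 38 genes of complex I rose (median 1.69), 2 of 4 of complex II (1.54), 5 of 9 of complex III (1.87), 4 of 9 of complex IV (1.17) and 11 of 15 of ATP synthase (1.71). ATP5A1, the alpha chain of ATP synthase, went from 795, 604 and 1210.1 to 8497, 6005 and 6178 and rose by 3.02 ± 0.29 (adjusted p = 1.3e-07). UQCRH of complex III went from 633, 661 and 752 to 5497, 3614 and 2994, and COX5A of complex IV from 1483, 1053 and 1318 to 7224, 5393 and 4688. Stages did not overlap for these 3 genes. Members that did not pass included CYCS, cytochrome c (difference 0.32), and SDHB of complex II (difference -0.24).

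**Figure D4:**
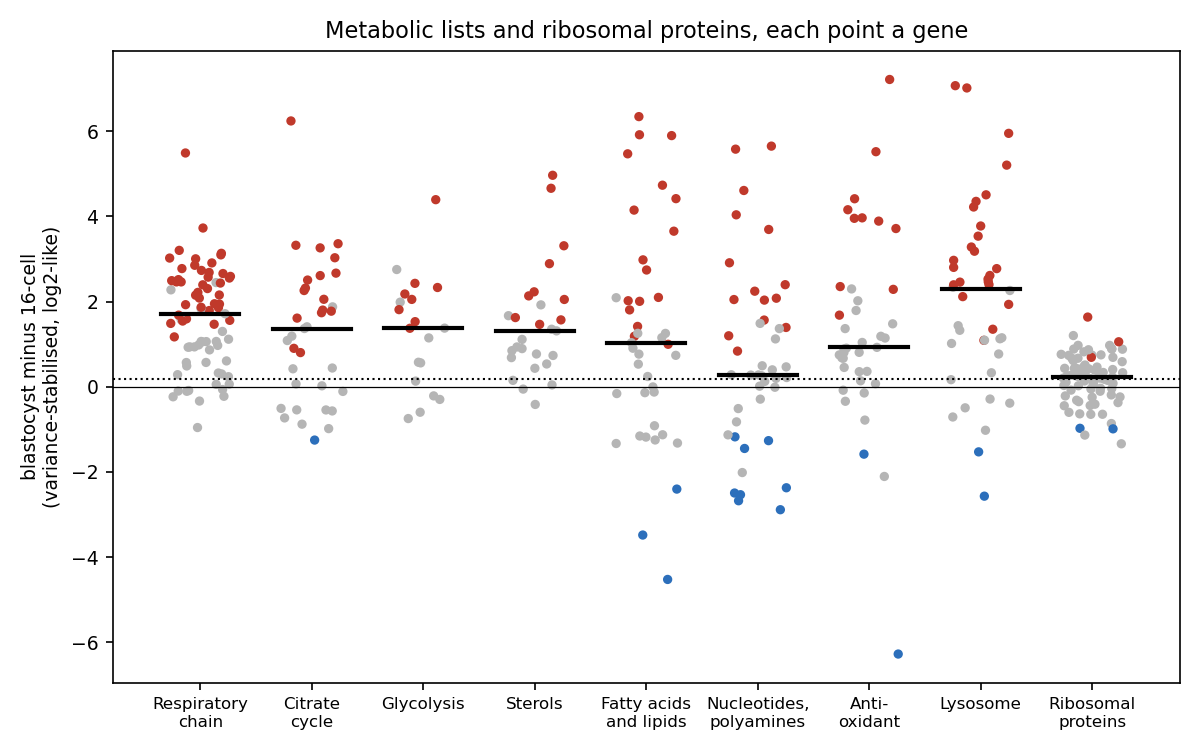
Difference between blastocyst and 16-cell embryos (deposited variance-stabilised scale) for each tested gene of 9 lists; red points rose, blue points fell and grey points did not pass. Thick bars are list medians and the dotted line is the median of all genes, 0.18. Respiratory chain genes lie at a median of 1.70 with no fall, and ribosomal protein genes at 0.24.

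Genes of pyruvate entry and of the citrate cycle also rose more often than they fell. Of 35 pyruvate and citrate cycle genes, 17 rose and 1 fell, while 17 did not pass the test (median 1.37). The single fall, of malic enzyme ME2, did not pass without 16-cell pool 3 (adjusted p = 0.072) or blastocyst pool 2 (0.052). Nor did it pass with the 6 libraries alone (0.14) or by voom (0.12), and 2 genes fell without 16-cell pool 2 or blastocyst pool 1. BRP44L (MPC1), a chain of the mitochondrial pyruvate carrier, went from 38.2, 2.82 and 37.1 to 3981, 1166 and 1029, a rise of 6.24 ± 0.70 (adjusted p = 9.6e-07). PDHB, of pyruvate dehydrogenase, went from 419, 311 and 301 to 4614, 2682 and 3524. GLUD1, which feeds glutamate into the cycle, rose by 3.32 ± 0.30, from 524, 369.9 and 343 to 4015, 3863 and 4401. Glycolysis genes rose in 8 of 19 with no fall (median 1.38). LDHB, a lactate dehydrogenase chain, went from 904, 635 and 798 to 3783, 3859 and 2259 (a rise of 2.05 ± 0.30), GAPDH from 254, 483 and 757 to 2199.5, 2763 and 2438. PGK1 and GPI, enzymes of the same path, did not pass (differences -0.60 and -0.30).

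Lipid genes rose more often than they fell. Among 27 sterol synthesis genes 10 rose and none fell (median 1.31). HSD17B7, an enzyme of the path, had no read before and 119, 27.4 and 72.6 after, a rise of 4.96 ± 0.94 (adjusted p = 0.00036). MVD, which makes the isoprene unit, rose by 4.66 ± 0.86, from 0, 0 and 14.8 to 123, 127 and 79.4. Of 41 fatty acid and lipid storage genes, 17 rose and 3 fell, while 21 did not pass the test (median 1.03). ACSL3, which activates long-chain fatty acids at lipid droplets, went from 131, 240.0 and 462 to 9043, 5752 and 5553, a rise of 4.73 ± 0.37 (adjusted p = 7.9e-09). ACLY, which makes cytosolic acetyl-CoA, rose by 2.01 ± 0.24, from 1348, 988 and 1036 to 5499.5, 3531 and 4638. FADS2, a desaturase, went from 0, 5.65 and 7.42 to 207, 184 and 494, and PLIN3, a coat protein of lipid droplets, from 0, 11.3 and 16.7 to 509, 716 and 382. The falls were ACACB and MOGAT1 (adjusted p of 0.09 and 0.051 with the 6 libraries alone) and ACSL1 (0.051 without 16-cell pool 1).

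Nucleotide, one-carbon and polyamine genes divided, with 15 of 43 higher and 8 lower (median 0.28), and 20 did not pass. The median turned to -0.077 and the falls to 11 with library medians set equal, and it was 0.49 without 16-cell pool 1 and 0.47 without blastocyst pool 3. PSPH, the last step of serine synthesis, rose from 3.37, 50.8 and 85.4 to 1176, 595 and 702, and PHGDH and PSAT1, the steps before it, rose by 5.58 and 5.65. AHCY, which clears S-adenosylhomocysteine, went from 633, 452 and 277 to 4099.8, 3222 and 2609.7, while MAT2A, which makes the methyl donor, fell by 1.18. DUT, which keeps uracil out of DNA, rose by 3.69 ± 0.43. Enzymes of purine synthesis went both ways. PPAT, the first of the path, went from 4981, 2462 and 2971 to 667, 412 and 727 and GART from 3831, 3789 and 3998 to 619.9, 572 and 828, falls of 2.50 ± 0.51 and 2.53 ± 0.59. PFAS, PAICS and ADSL, of the same path, did not pass (differences 0.26, 0.27 and 0.20), and ATIC, which ends the path to IMP, rose by 2.03. AMD1, which makes the precursor of spermidine, fell by 2.68 ± 0.24 (adjusted p = 4.2e-08), from 12622, 10972 and 8346 to 2057, 1453 and 1471. Stages did not overlap in PSPH, AHCY, DUT, PPAT, GART and AMD1, which the smallest p picked.

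Antioxidant genes rose in 11 of 39 and fell in 2 (median 0.92). Among the peroxiredoxins, which reduce peroxides, PRDX1, PRDX2, PRDX3 and PRDX6 rose, and PRDX4 and PRDX5 did not pass (differences -0.78 and 1.18). The thioredoxin gene TXN rose, and TXN2, its mitochondrial relative, did not pass (difference 0.75). PRDX2 went from 42.7, 152 and 174 to 5026, 6805 and 3680.3 and rose by 5.52 ± 0.42 (adjusted p = 5.1e-09), PRDX1 from 389.9, 232 and 514 to 6932, 6489.5 and 3466, and TXN from 1033, 344 and 512 to 14778, 10182 and 4711. GSTM3, a glutathione transferase, fell from 1101, 1101 and 562 to 4, 14.2 and 6.78, by 6.28 ± 0.36 (adjusted p = 1.5e-10). The other fall, of TXNIP, was lost without 16-cell pool 2 (0.12), 16-cell pool 3 (0.093), blastocyst pool 2 (0.093) or blastocyst pool 3 (0.13). Prostaglandin and steroid enzymes rose in 11 of 26 (median 1.43, and 0.90 without 16-cell pool 2). Beside PTGS2, PTGR1, a prostaglandin-degrading reductase, went from 0, 14.1 and 14.8 to 1621, 574 and 409. CYP19A1, aromatase, which is also in the cumulus marker list, went from 1.12, 16.9 and 0 to 459.9, 333 and 224. Both PTGR1 and CYP19A1 rose without overlap. The 4 falls of the list were not stable: 1 remained without 16-cell pool 1, blastocyst pool 2 or blastocyst pool 3, and 2 without 16-cell pool 2.

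Few cytosolic ribosomal protein genes passed the test. Only 3 of 78 rose and 2 fell, below the shares of all genes, and the median of 0.24 was close to the 0.18 of all genes, with a range of -0.12 to 0.55 over the alternatives. The count of rises depended on the setting. It was 17 by voom, 7 with the replicate number as a block, 6 without 16-cell pool 1, 8 without blastocyst pool 3 and 1 without 16-cell pool 3, blastocyst pool 1 or blastocyst pool 2, and no fall remained without 16-cell pool 1, 16-cell pool 2 or blastocyst pool 3, with 1 fall without either other blastocyst pool. RPL11 went from 7449, 5590.4 and 4915 to 15195, 14636 and 8272 (a rise of 1.06 ± 0.29, adjusted p = 0.0081). Its call was lost with library medians set equal (0.16), with the 6 libraries alone (0.1) and with array weights (0.054). These genes have many pseudogenes that may share their reads.

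Signalling genes are given by role. In the WNT pathway 12 of 48 rose (25.0%) and 8 fell (16.7%), against 18.2% and 13.1% of all genes. The median was 0.14, and -0.21 to 0.56 over the alternatives. Rises numbered 7 with the 6 libraries alone, with array weights or with medians set equal. On the ligand side WNT6 had no read before and 44, 121 and 9.68 after, a rise of 4.34 ± 0.59. LRP5, a coreceptor, had 3 reads over the 16-cell pools and 54.7, 157 and 58.1 scaled counts in blastocysts. LEF1, a nuclear partner of beta-catenin, went from 210.1, 669 and 373 to 2, 2.19 and 10.6, a fall of 5.63 ± 0.38 (adjusted p = 9.9e-10), and its relative TCF7L2 from 238, 536 and 469.6 to 60, 73.4 and 96.8. The other two factors of the family went both ways, with TCF7 falling by 1.38 and TCF7L1 rising by 1.47 (adjusted p = 0.019). TLE3, a corepressor that binds these factors, rose by 6.07 ± 1.12, from 0, 2.82 and 52 to 559, 758 and 539. GSK3B, the kinase that marks beta-catenin for destruction, fell by 1.30 ± 0.28, while beta-catenin itself (CTNNB1, above) went from 789, 816 and 787 to 4572, 2952 and 4212. Among inhibitors FRZB was read at 24.7, 79.1 and 9.28 and had 1 read over the blastocyst pools. The stages were apart in LEF1, TCF7L2, TLE3, GSK3B and CTNNB1. The ligand WNT7A had 1 read over the 6 pools.

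Among receptor kinase genes, in the FGF, EGF and MAPK list 17 of 54 rose and 4 fell (median 0.69, and 0.43 without 16-cell pool 1). KIT, the stem cell factor receptor, went from 592, 759.5 and 1069 to 5607, 5674 and 6032, a rise of 2.87 ± 0.26 (adjusted p = 6.6e-08). Its ligand KITLG, which is also in the cumulus marker list, fell by 2.52 ± 0.55, from 430.3, 251 and 389.8 to 47.3, 54.8 and 71.6. EGFR rose by 2.54 ± 0.43, from 101, 198 and 126 to 854, 554 and 1139. PDGFA, a ligand, went from 15.7, 22.6 and 37.1 to 316, 291 and 152, whereas its receptor PDGFRA overlapped (3082, 3182 and 4237 and 3583, 2700.3 and 4101, adjusted p = 1). FGFR2, the receptor for FGF signals in trophectoderm, rose from 0, 14.1 and 37.1 to 57.3, 159 and 157 (adjusted p = 0.0097). The call of FGFR2 was lost without 16-cell pool 1 (0.068) and with the 6 libraries alone (0.14). KIT, KITLG, EGFR and PDGFA kept their stages apart.

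In the TGF-beta, BMP, activin and NODAL list falls outnumbered rises. Of 42 tested, 7 rose and 14 fell, while 21 did not pass the test, against the 13.1% that fell among all genes, and the median of -0.29 was 0.16 without 16-cell pool 3, -0.63 without 16-cell pool 1 and -0.054 without blastocyst pool 2. With the 6 libraries alone 2 rose and 7 fell. Without 16-cell pool 2 only 4 rose. BMP15 and GDF9, oocyte growth factors, went from 5163, 6277 and 2431 to 18.7, 92 and 22.3 and from 743, 336 and 258 to 8.66, 35.1 and 1.94. BMP4 fell by 3.42 ± 0.44 (adjusted p = 4.8e-06), from 2304, 1313 and 1507 to 67.3, 263 and 194. BAMBI, a decoy receptor, fell by 3.69 ± 0.49, from 2427, 1753 and 1229 to 217, 107 and 93.9. The type I receptor ACVR1 rose by 2.73 ± 0.46, from 33.7, 45.2 and 117 to 459.9, 492 and 286, and the signal carrier SMAD1 by 3.74 ± 0.56, from 14.6, 178 and 156 to 1189.8, 1133 and 949 (adjusted p = 0.053 with the 6 libraries alone). The stages of these genes did not overlap. NODAL and SMAD4 did not pass (differences 0.32 and 0.91).

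Hippo pathway genes, which read cell position in the early embryo, rose in 9 of 28 and fell in 4 (median 1.25), with 2 falls without 16-cell pool 1 or blastocyst pool 2. VGLL1, a cofactor of the TEAD factors, had no read at 16 cells and 563, 504 and 65.8 in blastocysts, with pool 3 far below the others (a rise of 6.99 ± 0.65, adjusted p = 7.8e-08). YAP1, the coactivator the pathway restrains, listed by locus number, went from 294, 263 and 518 to 783, 825 and 1089 and rose by 1.37 ± 0.30. TEAD4, the DNA-binding factor needed for trophectoderm in mice, overlapped at 296, 302 and 102 and 237, 446 and 295 (difference 0.58 ± 0.67, adjusted p = 0.56). Insulin, IGF and nuclear receptor genes rose in 7 of 36 and fell in 7 (median -0.21, 0.17 without 16-cell pool 3 and -0.57 with library medians set equal, where 3 rose and 9 fell). That is 19.4% in each direction, against 18.2% and 13.1% of all genes, so the share of rises was near that of all genes. HIF1A, the oxygen-sensitive factor, fell by 2.76 ± 0.28 (adjusted p = 2.1e-07), from 11289.7, 8069 and 10013 to 2008, 965 and 1496. The nuclear receptor NR2F2 fell by 4.16 ± 0.57, from 653, 460.2 and 364 to 46.7, 13.1 and 18.4. The 7 rises moved with single pools, with 4 without 16-cell pool 1, 2 without 16-cell pool 3, 3 without blastocyst pool 1 and 1 without blastocyst pool 2. With the 6 libraries alone 1 remained. Interferon and JAK-STAT genes rose in 7 of 42 and fell in 3 (median 0.17, and -0.19 to 0.69 over the alternatives). These shares, 16.7% and 7.14%, lay below those of all genes. The falls numbered 6 with library medians set equal and 5 without 16-cell pool 1 or after quantile normalization, and with the 6 libraries alone 1 gene rose and 1 fell. Leaving out 16-cell pool 3 gave the highest median, and setting the library medians equal the lowest. STAT3 and JAK1 of this list did not pass (differences 0.56 and 0.69).

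Trophectoderm factors and products rose in 20 of 35 and fell in 4 (median 3.07, and 1.95 without 16-cell pool 2), with 2 falls without 16-cell pool 2, blastocyst pool 1 or blastocyst pool 3. The list was drawn up with these data known, so its direction is a description. CDX2, the homeobox factor of trophectoderm, had reads in 16-cell pool 2 alone (0, 11.3 and 0) and 213, 130.4 and 88.1 in blastocysts, a rise of 5.08 ± 0.91 (adjusted p = 0.00021). GATA2 went from 116, 53.6 and 20.4 to 1149.8, 910.3 and 979 and GATA3 from 2.25, 110.1 and 295 to 691, 1042 and 927, the second with adjusted p = 0.14 when only the 6 libraries were fitted. IFNT, interferon tau, had 2 reads over the 16-cell pools and 438, 1184 and 218 scaled counts in blastocysts, and its many close copies may share reads. Other factors known from trophectoderm were already read at 16 cells. TFAP2C stood at 7561, 4848 and 4206 and 4431, 2927 and 2861 (adjusted p = 0.37). KLF5 went from 3045, 1234 and 1316 to 4972, 2550.2 and 6306 and did not pass (difference 1.34 ± 0.56, adjusted p = 0.075), but rose with the replicate number as a block (0.046), by voom (0.018), after quantile normalization (0.036), with array weights (0.043) and without 16-cell pool 1 (0.034). ELF3 and TFAP2A were low and overlapped (adjusted p = 0.86 and 0.57). EOMES, needed for mouse trophoblast, fell by 4.71 ± 1.00, from 528, 102 and 14.8 to 0.667, 0 and 3.87, with 16-cell pool 1 the highest of its stage (adjusted p = 0.079 with the 6 libraries alone). Among the trophectoderm markers, KRT8, KRT18, CDX2, GATA2, GATA3 and PAG2 thus rose, and TFAP2A, TFAP2C and ELF3 did not pass. Among markers of the inner cell mass and hypoblast, POU5F1 and HNF4A rose and NANOG, KLF4 and SALL4 fell. SOX2, GATA6, GATA4 and PDGFRA did not pass.

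Genes of the inner cell mass and hypoblast went both ways, with 7 of 34 higher (20.6%) and 8 lower (23.5%), against 18.2% and 13.1% of all genes. The median was 0.22, and -0.14 to 0.67 over the alternatives, with -0.11 without 16-cell pool 1. Without blastocyst pool 3 the falls numbered 5. POU5F1, the pluripotency factor OCT4, went from 430.3, 463 and 522 to 1849.6, 3738 and 1735 and rose by 2.27 ± 0.38 (adjusted p = 0.00012). NANOG fell by 3.33 ± 1.02, from 1847, 1858 and 906 to 316, 86.5 and 102 (adjusted p = 0.016), which did not pass without blastocyst pool 2 (0.071) or blastocyst pool 3 (0.059). SOX2 overlapped, at 128, 147 and 139 and 85.3, 232 and 251 (adjusted p = 0.79). SALL4, a further pluripotency factor, fell, with differences of -1.41 to -0.77 over the alternatives, and 7 of them did not make the call. KLF4 and KLF17, related zinc-finger factors, fell by 2.29 ± 0.33 and 5.63 ± 0.54, KLF17 from 6843, 8801 and 6151 to 128, 127 and 171. TFCP2L1, a factor of naive pluripotency, rose by 5.83 ± 0.82, with reads in 16-cell pool 3 alone before and 151, 408 and 294 after. HNF4A, a factor of visceral endoderm and liver, had no read before and 591, 177 and 125 after. GATA6, the first hypoblast factor, listed by locus number, had 1319, 1118 and 2032 and 4124, 3234 and 4415 without overlap. Its difference of 1.43 ± 0.61 did not pass (adjusted p = 0.082), while with the 6 libraries alone (0.03), by voom (0.00028) and on log2(scaled count + 8) (0.035) it rose. GATA4 had 0, 22.6 and 159.6 and 17.3, 2.19 and 20.3 (adjusted p = 0.82), and SOX17 had too few reads to be tested. FOXO1, an insulin-responsive factor, fell by 4.56 ± 0.28 (adjusted p = 2.5e-10), from 1515, 1589.6 and 865 to 54, 37.2 and 62.9.

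The largest fall was that of DUXA, a double homeobox factor listed by locus number. It fell by 8.40 ± 0.54 (adjusted p = 4.3e-10), from 22781, 17251 and 9313 to 26.7, 83.3 and 31. SYT11, a synaptotagmin of vesicle traffic, fell by 8.14 ± 0.37 (adjusted p = 4.1e-12), from 4854, 2067 and 1915 to 4, 7.67 and 5.81. XCL2, a chemokine, went from 702, 2761 and 2257 to 40.7, 0 and 0, with all blastocyst reads in pool 1. MEIOC, a meiosis factor listed by locus number, went from 1157, 994 and 1405 to 0, 13.1 and 9.68. Stages were far apart in all 4.

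Transcription factors linked to genome activation mostly fell. Of 26 tested, 16 fell, 9 did not pass and 1 rose (median -2.19). Beside DUXA, ZSCAN4, a factor of the activating embryo, went from 2035, 827 and 531 to 0, 12.1 and 4.84, and both genes have close copies. MAX, the partner of MYC, fell by 2.74 ± 0.36, from 1510.1, 1550.1 and 2266 to 193, 211 and 421. The single rise, of the stress factor ATF4, was lost without 16-cell pool 3 (adjusted p = 0.15), blastocyst pool 1 (0.15) or blastocyst pool 2 (0.1). It was also lost with the 6 libraries alone (0.17), with library medians set equal (0.25) and with array weights (0.12). In the list, 2 genes rose without 16-cell pool 1 or with the replicate number as a block. Oocyte genes fell in 26 of 50 and rose in 3 (median -2.04). KPNA7, a nuclear import receptor of oocytes, fell by 7.45 ± 0.34 (adjusted p = 4.1e-12), from 4188, 3092 and 1205 to 8.66, 13.1 and 9.68. ZP2, of the egg coat, fell by 6.09 ± 0.33, from 4720.2, 3377 and 1650.0 to 44.7, 37.2 and 36.8, and NLRP9 from 755, 1477 and 395 to 9.33, 12.1 and 4.84. The 3 that rose were PRDX1, DNMT3A and SPIN1, of which SPIN1 did not pass without 16-cell pool 2 (adjusted p = 0.081), blastocyst pool 1 (0.053) or blastocyst pool 3 (0.051).

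Genes that control stored mRNA fell in 21 of 58 and rose in 4 (median -0.51). BTG4, which brings the deadenylase to maternal mRNA, fell by 6.22 ± 0.61, from 6758, 4599 and 1167 to 50, 135 and 7.74. CPEB1, which controls poly(A) tails in oocytes, went from 216, 553 and 70.5 to 4, 0 and 0. The related uridyl transferases that tag mRNA for decay went in opposite directions. ZCCHC6 (TUT7) fell by 5.25 ± 0.32 (adjusted p = 2.5e-10), from 36136, 26363 and 31476 to 751, 644 and 1099.6, and ZCCHC11 (TUT4) rose by 4.02 ± 0.68 (adjusted p = 0.00012), from 32.6, 33.9 and 132 to 809.8, 765 and 1293. PARN, a poly(A)-specific nuclease, rose by 2.45 ± 0.32, from 138, 138 and 150.3 to 849, 757 and 789. Stages did not overlap for any of them.

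Meiosis and M-phase genes fell in 28 of 48 and none rose (median -1.30), with 1 rise without 16-cell pool 2 or blastocyst pool 1. WEE2, the kinase that holds oocytes in meiotic arrest, went from 535, 966 and 358 to 2.67, 0 and 0.968, a fall of 7.24 ± 0.38 (adjusted p = 4.9e-11). SMC1B, the meiotic cohesin, fell by 5.61 ± 0.35, from 1445, 2419.7 and 2584 to 56.7, 39.4 and 25.2. CKS2, a small partner of cyclin-dependent kinases, stayed well read, with 19726, 9902 and 8398 before and 2162, 1098 and 1234 after. Other mitotic genes of the list fell by less, such as CCNB1 by 2.19 and AURKA by 2.47, while PLK1 and AURKB did not pass (differences -0.59 and -0.45). Chromatin genes fell in 9 of 35 and rose in 3 (median -0.58, and -0.21 without 16-cell pool 2). The de novo DNA methyltransferases rose. DNMT3A went from 53.9, 36.7 and 11.1 to 2932, 3704 and 3274, by 6.64 ± 0.53 (adjusted p = 1.1e-08), and DNMT3B from 494, 98.8 and 96.5 to 1572, 2506 and 2456. DNMT1, which maintains methylation, overlapped (578, 1358 and 616 and 565, 501 and 482, adjusted p = 0.16). UHRF1 and UHRF2, which guide it, fell by 2.52 ± 0.37 and 1.86 ± 0.32, UHRF1 not by voom (adjusted p = 0.091). H1FOO, the oocyte linker histone, went from 217, 305 and 90.9 to 2, 0 and 0.968, and the histone variant macroH2A1 gene H2AFY from 1882, 1530.3 and 1392 to 294, 310.0 and 133.

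Some genes fell to few or no reads. A gene counted as switched off where it fell, had at least 10 reads in each 16-cell pool and had at most 3 reads over the 3 blastocyst pools, and 66 genes met this, 55 of them with a symbol and 21 with no blastocyst read at all. The rule reads 16-cell and blastocyst levels, so those levels are a description. The count moved with the pools, to 110 without 16-cell pool 1, 101 without 16-cell pool 2, 101 without blastocyst pool 1, 106 without blastocyst pool 2 and 118 without blastocyst pool 3, since fewer pools make the limits easier to meet. Levels at the 4-cell and 8-cell stages, which the rule does not use, divided the genes. At a mean of 10 or more scaled counts, 36 genes (54.5%) were present at 4 cells, 25 (37.9%) at 8 cells but not at 4 cells and 5 (7.58%) at neither. In GV or MII oocytes 33 of the 36, 2 of the 25 and 2 of the 5 reached that level. Over all genes tested the same shares were 64.1%, 10.1% and 25.7%, and over the genes that fell they were 85.7%, 9.69% and 4.62%. The 66 were picked for reads in every 16-cell pool, which bears on the levels of nearby stages, so their shares are a description as well. The median of the 36 was 255 at 4 cells, 319 at 8 cells and 97.2 at 16 cells, and that of the 25 was 2.31, 126 and 102.

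**Figure D5:**
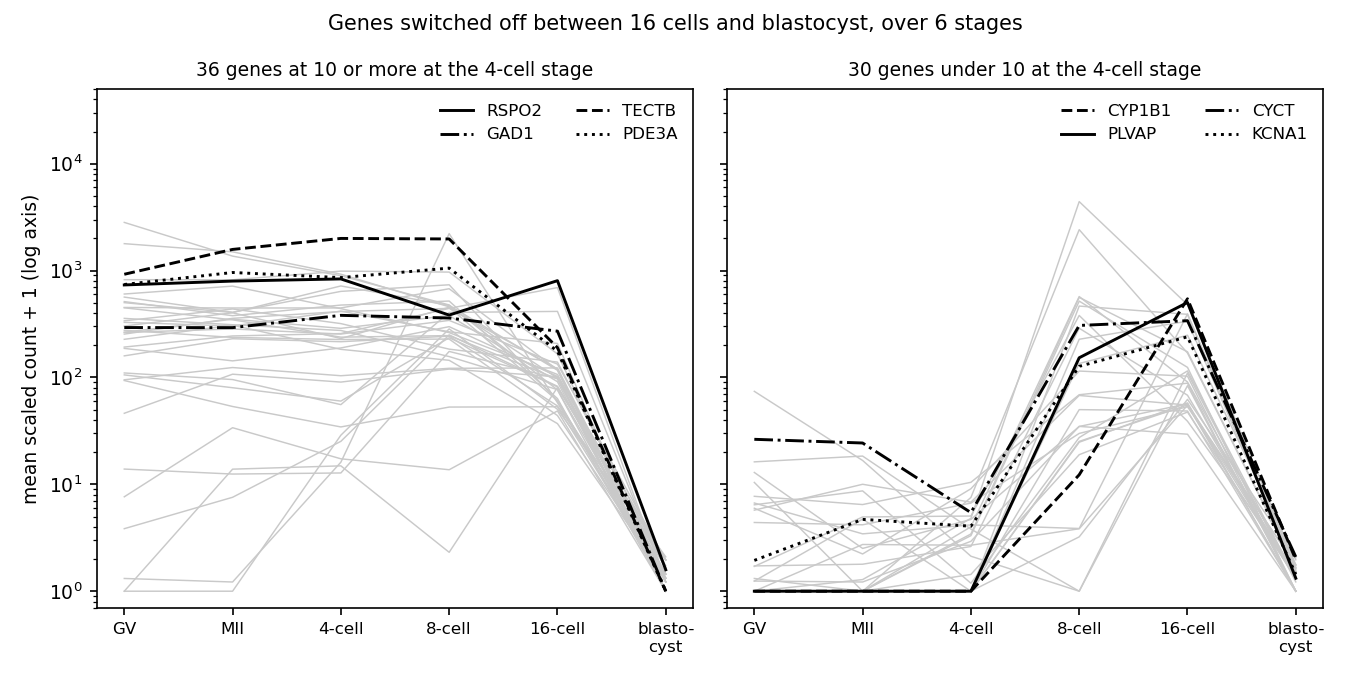
Mean scaled count plus 1 (log axis) of the 66 genes switched off, over the 6 stages in order. The left panel holds the 36 genes at 10 or more scaled counts at the 4-cell stage and the right panel the 30 others; each grey line is a gene and 4 in each panel are drawn in black. TECTB stays at 923 to 1998 up to the 8-cell stage, and PLVAP is at 0 up to the 4-cell stage and at 152 at 8 cells.

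Genes present at 4 cells included TECTB, a zona-domain protein known from the inner ear. Its mean was 1998 at 4 cells and 1976 at 8 cells, it had 158, 288 and 121 in 16-cell pools, and no blastocyst pool had a read, at least 208-fold lower at the limit of 3 reads over that stage. PDE3A, a phosphodiesterase that lowers cyclic AMP in oocytes, had means of 859 and 1054, then 125, 313 and 87.2 and no read. GAD1, which makes GABA, held near 380.2 and 359, then 353, 356 and 102 and no read. RSPO2, a secreted enhancer of WNT signals, was at 834 and 382, then 1004, 556 and 850.0 and 2 reads over the blastocyst pools. CXCR4, a chemokine receptor, had means of 256 and 442, was uneven at 16 cells (1794, 200.5 and 81.7), with pool 1 far above the rest, and had 1 read over the blastocyst pools. Among these 5 genes, the 16-cell means of TECTB, PDE3A and GAD1, 189, 175 and 270.2, lay below their 8-cell means, and that of RSPO2, 804, above. The 16-cell mean of CXCR4, 692, lay above through pool 1 alone, since pools 2 and 3 lay below its 8-cell mean. Other genes were under 10 scaled counts up to the 4-cell stage. PLVAP, known from the diaphragms of capillary walls, had no read up to 4 cells, a mean of 152 at 8 cells and 873, 308 and 325 at 16 cells, and 1 read over the blastocyst pools. KCNA1, a potassium channel, was at 3.05 and 126, then 182, 274 and 262 and 2 reads. CYP1B1, a cytochrome P450, came later, at 11.3 in 8-cell embryos, then 181, 407 and 1043 and 3 reads, all in blastocyst pool 3.

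Genes that rose from no 16-cell read are the reverse case. Of the 17138 genes tested, 470 rose with no read in any 16-cell pool and at least 3 reads in each blastocyst pool. Of these, 283 had a mean of 20 or more scaled counts and 61 of 100 or more. Without 16-cell pool 3, the one with reads in the most genes, the count was 896. Of the 470, 81 had no read at any earlier stage. At a mean of 10 or more scaled counts, 79 (16.8%) were present at 4 cells, 29 (6.17%) at 8 cells but not at 4 cells and 362 (77.0%) at neither. Over all genes tested the same shares were 64.1%, 10.1% and 25.7%, and over the genes that rose 61.7%, 5.52% and 32.8%. The 470 were picked for having no 16-cell read, so their shares are a description. Counting GV and MII oocytes as well, 320 stayed under 10 scaled counts at every earlier stage. The highest were PAG2 and PLAU, the latter at 1508, 925 and 902 in blastocysts. GDPD2, a phosphodiesterase of glycerol lipids, stood at 664, 824 and 646, and TRPV5, a calcium channel of absorbing epithelia, at 419, 748 and 889.6. PRSS8, the protease prostasin that activates the epithelial sodium channel, had 403, 569.6 and 140.4, and SCNN1A, a chain of that channel, rose by 3.82 (adjusted p = 0.00068). PECAM1 and FCGR2, adhesion and antibody receptors known from blood and vessel cells, stood at 387, 1076 and 435 and 503, 604 and 472, beside the blood markers given above. FLT3, a receptor kinase of blood progenitors, had 397, 296 and 584. PAGE4, a cancer and testis antigen, had 850.5, 922 and 82.3, with pool 3 the lowest by far.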

How the data were processed

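RNA-seq was run on 18 libraries, 3 pools of 10 oocytes or embryos for each of 6 stages. The authors deposited 1 table of log2-like variance-stabilised values for 21668 genes, made with CASAVA 1.6, TopHat2 2.0.3, HTSeq and DESeq on UMD3.1, per the submitters' processing notes. Neither the role of each tool nor the gene annotation is given in the sources used here. The lowest deposited value, 1.097, stood for 0 reads. The values were inverted to whole reads, and 100% came out whole within 1e-08. Scaled counts are these reads over the size factor.

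A gene was tested if 3 or more libraries held a read of it, in a fit by limma 3.58.1 (R 4.3.3; empirical Bayes with a mean trend) on the deposited values of all 18 libraries, with stage as the only term, and p-values were adjusted by Benjamini-Hochberg over all genes tested at a threshold of 0.05. Tables and plots used Python 3.11.15, pandas 2.3.3, numpy 2.4.6 and matplotlib 3.10.9. The fit was tested on simulated data. Depth is counted in reads amplified from cDNA, which are not independent molecules, so limits based on 3 reads cover counting error only.

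Genes named were the 12 largest rises and falls without overlap between stages, up to 4 called members per list and direction by smallest p, 52 key genes, and the 15 genes switched off and the 15 that rose from no 16-cell read with the highest levels. Any further list member was picked for naming with its values known. The comparison, the 39 gene lists (4 of them markers of other cells) and the key genes were chosen with earlier results of these data known. Symbols of 2521 genes listed by locus number came from the RefSeq gene table. No count of promoter motifs was made, and promoter sequences are not used here. Some genes that the rule selects are not reported here.

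Replicate numbers come from the sample titles. Deviations of same-numbered pools correlated across genes at 0.113, 0.134 and 0.108, and of other pairs at -0.094 to -0.034. Same-numbered pools were therefore treated as possibly paired. The main fit left the number out, so the SE, p-values and counts given above take no account of such pairing. A fit with the number as a block was run as an alternative. The other 15 of 16 alternatives changed the libraries fitted, the test, the scale, the normalization, the filter on low values or the weights.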

Additional observations from a re-analysis of the deposited data

How the results depend on the processing

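With only the 6 libraries of both stages fitted, 1689 genes rose and 1226 fell. Under the other settings the counts stayed within 1.5 times those given, but the share of rises among calls was 45.6% with library medians set equal and 51.5% after quantile normalization, against 58.1%. Leaving out 1 library at a time gave 2477 to 3283 rises and 1876 to 2199 falls, 94 to 118 genes switched off, and 495 to 896 genes that rose from no 16-cell read. In the 35 lists other than markers, the 6 libraries alone moved the rises by over 1.5 times in 19 and the falls in 23, and setting library medians equal moved the rises in 5, the falls in 7 and the median in 18. Under the latter, rises numbered 7 for WNT, 5 for glycolysis, 3 for insulin and nuclear receptors and 0 for ribosomal proteins and activation factors, and the respiratory chain list had 1 fall. With the 6 libraries alone rises numbered 4 for basement membrane and for sugar carriers, 8 for amino acid carriers and for FGF, EGF and MAPK genes, 14 for lysosomes, 5 for sterol synthesis, 9 for lipids, 7 for nucleotide synthesis and for antioxidants, 6 for prostaglandins and 11 for adhesion junctions, and falls 16 for meiosis. With the replicate number as a block, 3228 genes rose and 2402 fell; 1 named gene (KLF5) gained a call, none lost one, and the list counts that moved by over 1.5 times stand beside their lists, apart from 1 fall among oviduct and endometrium markers. Of 281 named genes called, 202 kept the call under all 16 alternatives, 69 lost it with the 6 libraries alone, 40 without some single library and 9 with library medians set equal, and none reversed. The settings named beside a gene above are not always all those that ended its call. The cause of such a change was not tested. Fitting the 6 libraries alone changes both the number of libraries and the pools from which the spread is estimated. The count of promoter motifs was not run. Genes with few reads were read coarsely in 16-cell pool 2, the shallowest of its stage, where 1 read was worth 2.82 scaled counts. The number of genes read did not follow depth among the 16-cell pools. The deepest, pool 1 with 7456788 reads, had reads in the fewest genes, 11970, against 12903 in pool 2 and 14146 in pool 3. Which limit weighed most on the test was not tested.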

Other observations

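Apoptosis genes, which belong to none of the groups above, rose in 7 of 32 and fell in 2 (median 0.52), or 21.9% and 6.25%, against 18.2% and 13.1% of all genes. The median was 0.19 without 16-cell pool 2, 0.30 without blastocyst pool 3 and 0.16 once all libraries had the same median, which gave 4 falls, and with the 6 libraries alone 4 rose and none fell. FAS, a death receptor, had no read in 16-cell pools and 114, 108 and 112 scaled counts in blastocyst pools. BCL2L1, which protects cells from death, went from 59.5, 33.9 and 16.7 to 283, 872 and 254, a rise of 3.44 ± 0.61 (adjusted p = 0.00019 by limma). Without 16-cell pool 2 the rises numbered 4, and the falls in the list (BIRC3 and CASP2 with all pools) numbered 1 without any of 16-cell pools 2 and 3 or blastocyst pool 2 and none without blastocyst pool 1.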
